A study of Mus musculus with 6 samples.

Results

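The genes described here are the histone cluster genes of mouse small intestinal organoids, taken as every gene whose symbol begins with Hist1h, Hist2h, Hist3h or Hist4h and that held 50 or more unique molecular identifiers (UMIs) summed over the 6 deposited matrices. Of 67 such symbols among 32285 genes, 62 passed. The lowest member, Hist3h2ba, held 280 UMIs, and the 5 symbols that did not pass were Hist1h1t with 26, Hist2h2aa2 with 9, Hist1h2bq with 5, and Hist1h2ba and Hist1h2aa with 1 each. The members comprise 5 linker histone H1 genes, 16 H2A, 16 H2B, 12 H3 and 13 H4 genes. On mouse build GRCm38, 50 of them lie on chromosome 13 between 21715763 and 23764406, 9 on chromosome 3, 2 on chromosome 11 and 1 on chromosome 6.

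Histones package DNA. Pairs of the core histones H2A, H2B, H3 and H4 form the particle around which DNA winds, and H1 binds the DNA that links particles. Most genes of the clusters are transcribed as cells replicate their DNA, and their mRNAs end in a short stem-loop, bound by Slbp, in place of a poly(A) tail. Some cluster genes also give polyadenylated mRNAs in cells that have stopped dividing. In the small intestine, stem cells and their dividing progeny lie in the crypts, and enterocytes and most secretory cells have left the cell cycle. The scRNA-seq used here primes cDNA from poly(A) and reads 3′ ends, so how a histone mRNA ends bears on whether it is counted. Members were ranked and summed by UMIs, but a difference in UMIs between genes was not taken as a difference in mRNA.

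The study grew organoids to day 3 and compared stem cells and their progeny with and without an inhibitor, and with and without an induced knockout. WT organoids, from adult mice, were kept with the vehicle DMSO (-EIPA, n = 2 libraries) or with the small-molecule inhibitor EIPA (+EIPA, n = 2). Organoids with inducible-CRISPR-Cas9, carried by a lentivirus and expanded from single clones, were left without doxycycline (-Dox, n = 1) or given it (+Dox, n = 1). The sort took live cells, and in the +Dox organoids live GFP+ cells, in which the Cas9-EGFP transgene was on. The 87954 cells kept gave 161670015 to 239368573 UMIs per library, with median depths of 11477.5 to 17020 UMIs per cell and between 33 and 78 barcodes shared by any pair of libraries.

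The stem-loop was searched in the annotated transcript of each member, since it sets how the mRNA ends. It was found in 44 members in 8 forms, each with a perfect 6-base stem, written below 5′ to 3′ on the gene's strand with the 4-base loop in capitals. Of the 44, 25 share the first form, which is found in H1, H2A, H2B and H3 genes, 7 share the second, all of them H4 genes, 5 share the third, and Hist2h4 and Hist1h4i share the fourth.
H1, H2A, H2B and H3 form, 25 members including Hist1h2ac, Hist1h2ap and Hist1h1e: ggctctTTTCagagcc
H4 form, 7 members including Hist4h4, Hist1h4d and Hist1h4m: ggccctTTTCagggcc
Hist1h2bb, Hist1h2bk, Hist1h3c, Hist1h3e and Hist1h3f: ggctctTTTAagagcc
Hist2h4 and Hist1h4i: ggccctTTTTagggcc

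The annotated transcripts of 22 members end within 100 bases of the stem-loop, those of 22 others run more than 100 bases past it. The other 18 annotated transcripts hold no stem-loop. Only annotated transcripts were searched, so these 18 genes may hold a stem-loop past the annotated end. In the long group are Hist4h4 (chromosome 6, 136801553 to 136804415, minus strand), with 2445 bases past the stem-loop, and Hist1h2ac (chromosome 13, 23681467 to 23683948, minus strand), with 2010 bases past it. Hist2h4 (chromosome 3, 96261682 to 96263311, minus strand) runs 1257 bases past it. Hist1h2ap and Hist1h4m each end 3 bases after it. The genes are also much alike: counted in windows of 91 bases, the read length, 56 of 62 members share sequence with another histone gene. In 23, more than 50% of windows are shared. How reads from shared windows were counted was not tested, so counts of these single members are less certain. Hist1h1e and Hist1h2be overlap by 496 bases on the same strand.

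Promoters are shown for 3 members on which results below turn, as the 250 bases before the RefSeq start on GRCm38.p6, read 5′ to 3′ on the gene's strand (minus for all 3), with TATAAA on the sense strand, CCAAT on either strand and ATTTGCAT on either strand in capitals. Hist1h1b was among the members most restricted to cycling cells, and Hist1h2ac and Hist4h4 stood lower in the libraries with EIPA and with Dox.
Hist1h1b, chr13:21780626-21780875: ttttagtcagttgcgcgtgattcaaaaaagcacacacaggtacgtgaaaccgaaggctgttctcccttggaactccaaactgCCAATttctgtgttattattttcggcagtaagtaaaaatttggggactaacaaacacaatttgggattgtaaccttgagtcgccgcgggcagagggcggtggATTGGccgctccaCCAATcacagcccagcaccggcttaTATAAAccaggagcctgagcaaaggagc
Hist1h2ac, chr13:23683960-23684209: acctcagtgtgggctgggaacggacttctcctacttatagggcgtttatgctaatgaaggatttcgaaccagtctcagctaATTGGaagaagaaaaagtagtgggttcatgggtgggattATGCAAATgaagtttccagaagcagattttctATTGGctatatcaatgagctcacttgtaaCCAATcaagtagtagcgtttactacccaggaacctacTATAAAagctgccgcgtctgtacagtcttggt
Hist4h4, chr6:136804432-136804681: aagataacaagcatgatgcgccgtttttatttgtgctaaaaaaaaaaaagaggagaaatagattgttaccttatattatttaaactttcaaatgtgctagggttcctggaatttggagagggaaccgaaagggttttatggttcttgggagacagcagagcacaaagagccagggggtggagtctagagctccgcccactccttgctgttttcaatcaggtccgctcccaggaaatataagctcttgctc

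Promoters of 57 members matched the RefSeq table by name. CCAAT stood in the promoter, counted with the 50 bases after the start, of 84.2% of them against 37.4% of 32851 promoters of the same length. It stood in every matched H1, H2A, H2B and H3 promoter and in 3 of 12 H4 promoters. TATAAA stood in 49.1% against 8.32%, and ATTTGCAT, the octamer, in 19.3% against 1.74%, with 6 of 16 H2A and 5 of 14 H2B promoters holding it and no H1, H3 or H4 promoter. Hist1h2ac holds all 3 motifs and Hist4h4 none of them. The promoter of Hist1h2ac overlaps the first bases of Hist1h2bc (chromosome 13, 23684199 to 23692908, plus strand), which is read in the opposite direction.

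To separate cycling from differentiated cells without histone genes, each cell was thinned to 3000 UMIs and scored on marker lists. A cell counted as cycling with at least 6 UMIs of 35 S-phase markers or 9 of 42 G2/M markers. It counted as differentiated when both cycle scores were under those limits divided by 2 and its enterocyte, Paneth, goblet, enteroendocrine or tuft score was past a limit. The median cell of the enterocyte range held 101 to 180 UMIs of the enterocyte markers of its 3000, which the rule itself requires to be high, and the median cycling cell, for which the rule does not use them, held 3 or 4. The Paneth range also held goblet markers, at a median of 120.5 to 165 UMIs, and the goblet range Paneth markers, at a median of 23 to 35 in 4 libraries, 72 in +EIPA replicate 2 and 78.5 in +Dox. These classes are ranges of a score: 18.8 to 27.8% of scored cells lay within 1.5 times of a cycling limit. Cycling cells made up 49.6% and 50.04% of scored cells in -EIPA, 43.2% and 41.0% in +EIPA, 51.5% in -Dox and 36.0% in +Dox. Differentiated cells made up 22.9% and 16.7%, 30.2% and 33.2%, 21.8% and 40.8% in the same order.

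Most members belonged to cycling cells. In 51 of the 62, the level in counts per 1000000 UMIs (CPM) was at least 2-fold higher in cycling than in differentiated cells in each of the 6 libraries, as it was in 8.29% of all 15890 genes. Since the classes define the split, this is a description and carries no test. Sums under 3 UMIs were set to 3, which touched 5 members of few UMIs, and among the 57 members above that floor in each library 49 were at least 2-fold higher (9.39% of 13418 genes). The median member stood 3.13 log2 units higher in cycling cells. The 3 members lower in cycling cells in every library were Hist1h2bc, Hist2h3c2 and Hist3h2a, against 34.1% of all genes, and 8 fell between. Just inside the limit were Hist1h1e and Hist1h4i, whose lowest library stood at 1.20 each on the log2 scale, and just outside were Hist1h2ac and Hist1h3h at 0.88 each, the latter at the floor in 4 libraries.

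The steepest members are core histone genes and a linker histone gene. Hist1h2af stood 26.8-fold higher in cycling cells (median of 6 libraries, log2 ratio 4.74, range 3.65 to 5.74), followed by Hist1h2an at 22.9-fold, Hist1h2bn and Hist1h2ab at 22.2-fold each, and Hist1h1b at 22.0-fold. Hist1h1b, a linker histone H1 gene, stood at 682 and 442 CPM in the cycling cells of -EIPA, 580.0 and 598 in +EIPA, 511 in -Dox and 635 in +Dox. In differentiated cells it stood at 29.9 and 34.6, 27.2 and 14.6, 24.7 and 13.7 CPM. Every cycling value is above every differentiated value. Hist1h2ae, an H2A gene, stood 19.4-fold higher, Hist1h2ap, also H2A, 21.4-fold, and Hist1h3c, an H3 gene, 20.8-fold.

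Further members with many UMIs were graded. Hist2h2ac (H2A) stood 11.4-fold higher in cycling cells, Hist1h1d (H1) 8.71-fold and Hist1h4d (H4) 8.26-fold. Hist1h1e, the linker histone gene of most UMIs after Hist1h1b, stood 3.56-fold higher, with 277 to 383 CPM in cycling and 79.8 to 121 CPM in differentiated cells. Hist1h1c, a linker histone gene that also gives polyadenylated mRNA, stood at 55.9 to 71.0 CPM in cycling and 58.4 to 78.4 CPM in differentiated cells, ranges that overlap. Its log2 ratio ran from -0.42 to 0.18.

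**Figure D1:**
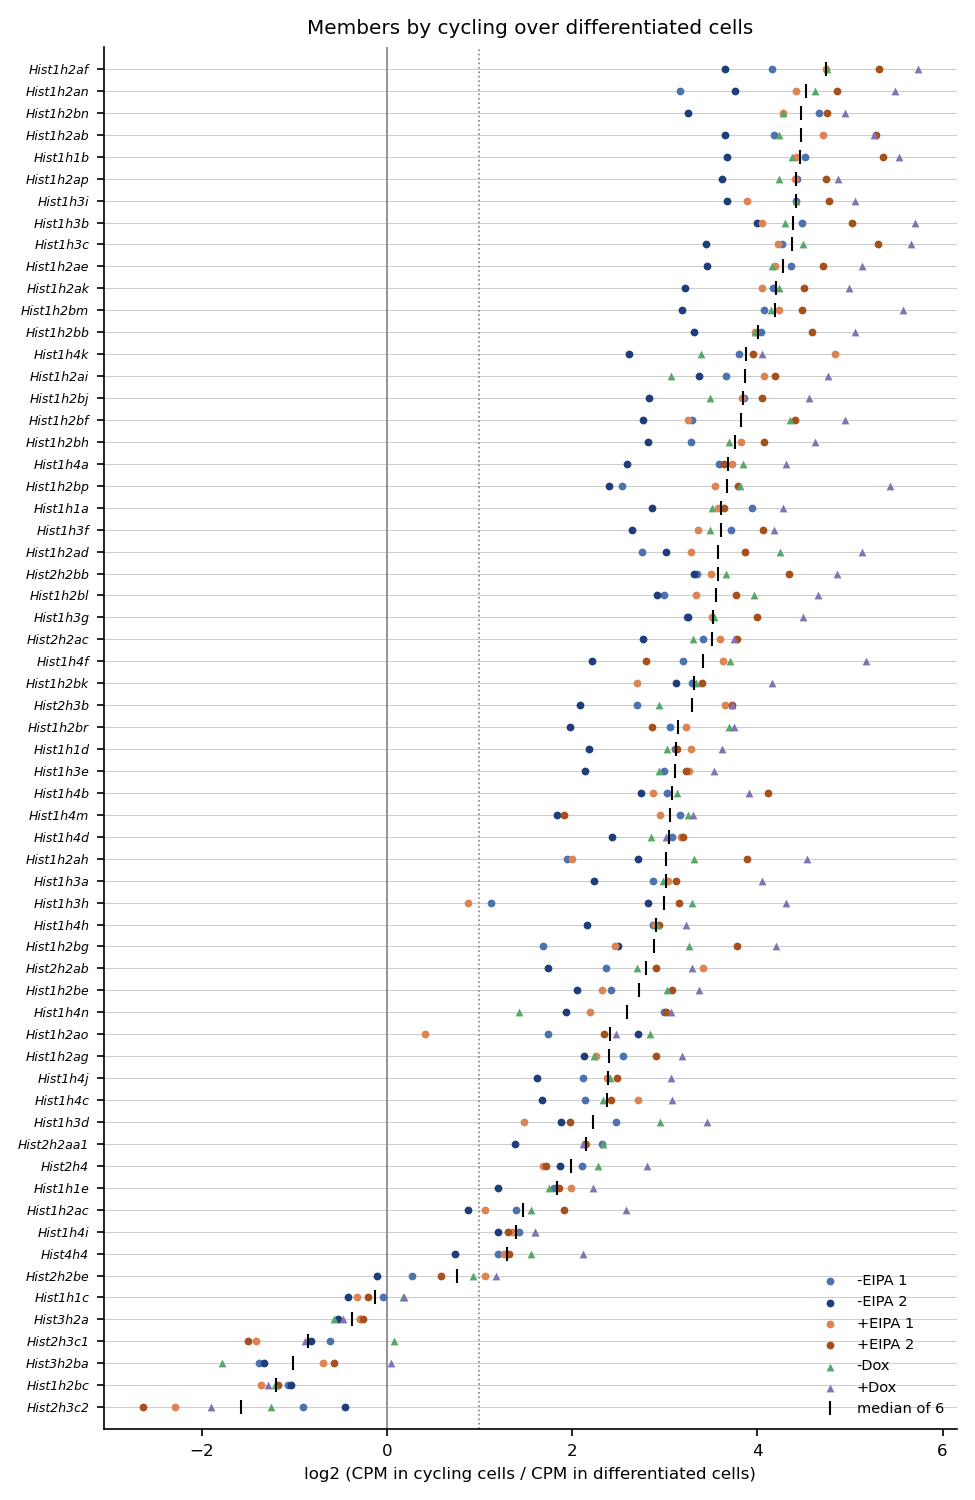
Log2 ratio of CPM in cycling over differentiated cells (x axis) for each of the 62 members (y axis, ordered by median), with 1 point per library and a bar at the median of the 6. The dotted line marks 2-fold; 51 members lie past it in every library, and the 6 lowest medians belong to Hist1h1c, Hist3h2a, Hist2h3c1, Hist3h2ba, Hist1h2bc and Hist2h3c2.

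The members were also grouped by how the annotated mRNA ends and by kind of histone. Members whose transcript ends within 100 bases of the stem-loop had a median log2 ratio of 3.52, with 21 of 22 in the cycling group. Members with no stem-loop in the annotated transcript, which may stop before it, had 3.59. Those that run more than 100 bases past it had 2.30, with 15 of 22 in the cycling group, 2 lower and 5 between. By kind, medians were 3.12 for H1, 3.54 for H2A, 3.57 for H2B, 3.20 for H3 and 2.91 for H4.

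Within the cycling cells, most members were lower in cells past the S-phase limit alone than in cells past the G2/M limit alone. The cells were divided into an S range (past the S-phase limit alone), a G2/M range (past the G2/M limit alone) and cells past both limits. The S range thus leaves out cells that also scored for G2/M. Which part of the cell cycle its cells were in, and whether they were replicating DNA, was not tested. Of 62 members, 53 were lower in the S than in the G2/M range in each of the 6 libraries, as were 23.6% of all genes, and 0 were higher in each, against 22% of all genes. Summed over the 51 cycling members, levels ran from 1079 to 1512 CPM in the S range, 1925 to 2709 in the G2/M range and 3230 to 4998 past both limits. Hist1h4d, with 2.60-fold lower levels in the S range, and Hist1h3c, with 2.46-fold, showed wide gaps among the members of many UMIs. Hist1h1b was 1.62-fold lower there, with 247 to 352 CPM against 369 to 622 in G2/M and 759.5 to 1186 past both limits. Hist1h2an was 1.18-fold lower. Hist1h2bc did not keep a direction, with log2 ratios of -0.27 to 0.06.

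In differentiated cells the sum over the members of cycling cells did not reach 0. Their summed level in the enterocyte range was 197 and 232 CPM in -EIPA, 160 and 170 in +EIPA, 239 in -Dox and 149.9 in +Dox. It was 339 to 456 CPM in the Paneth range and 312 to 427 in the goblet range. In the enteroendocrine range it was 373 to 571 CPM and in the tuft range 418 to 637. Hist1h1e alone stood at 162 to 224 CPM in the enteroendocrine range and 136 to 258 in the tuft range. Single members did reach 0, such as Hist1h2bl, with 0 UMIs in the tuft range of every library. Free RNA in droplets was not removed, and its part in these levels was not tested.

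The members that were high in differentiated cells differed in level between cell types. Hist1h2bc, an H2B gene, was at 163 and 189 CPM in the enterocyte range of -EIPA, 193 and 223 in +EIPA, 168 in -Dox and 179.7 in +Dox. In the Paneth range it was at 41.0 to 62.8 CPM and past both cycle limits at 36.7 to 59.4, so enterocytes lay above both in every library. In enteroendocrine cells it was at 159.7 to 257 CPM and in tuft cells at 129 to 236, both of which overlap the enterocyte values. Over cycling cells together it stood at 64.1 to 79.0 CPM and over differentiated cells at 141 to 179.

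Hist3h2a, an H2A gene whose transcript runs 1643 bases past its stem-loop, was at 28.7 to 45.9 CPM in the enteroendocrine range, against 7.56 to 12.1 in the enterocyte range and 5.29 to 8.39 in the Paneth range. In the tuft range it was at 21.1 to 64.5 CPM, which overlaps the enteroendocrine values. Both ranges lay above the enterocyte and Paneth ranges, on 7 enteroendocrine UMIs in -Dox and 37 to 136 elsewhere, and on 2 to 26 tuft UMIs. Hist1h1c was lower in the enterocyte range, at 47.2 to 60.9 CPM, than in the Paneth range, at 83.3 to 113, or the enteroendocrine range, at 109.8 to 146. Hist2h3c2, an H3 gene, held few UMIs: 16 and 4 in the enterocyte range of -EIPA, 51 and 86 in +EIPA, 17 in -Dox and 63 in +Dox. That is 0.796 and 0.273 CPM, 1.64 and 2.19, 0.524 and 1.01. Hist2h3c1, its neighbour, stood at 0.742 to 1.37 CPM in differentiated and 0.362 to 0.784 in cycling cells. In 61.9% of its windows Hist2h3c2 shares sequence with another histone gene.

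**Figure D2:**
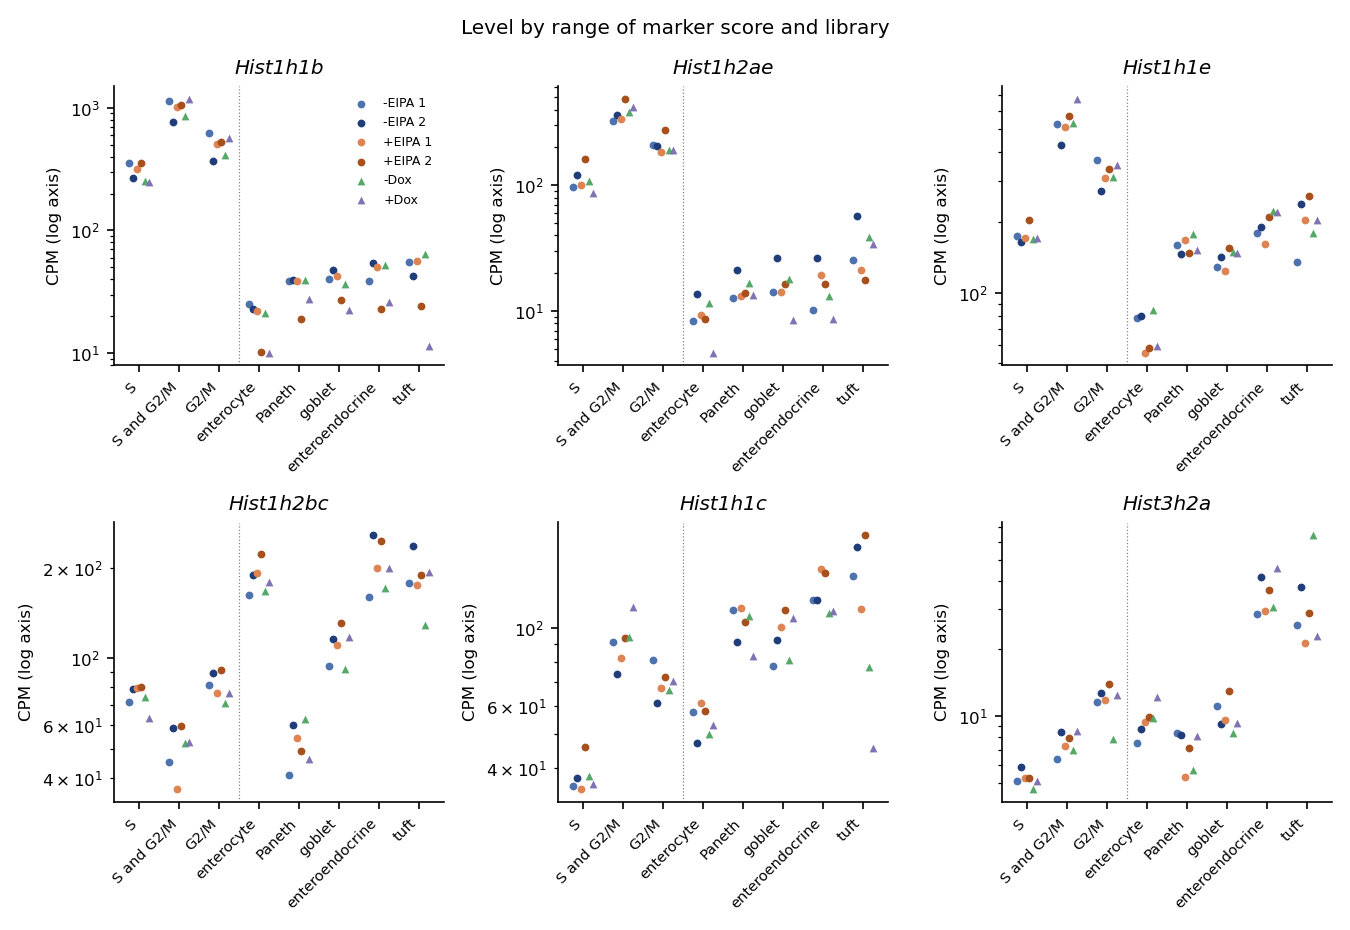
CPM on a log axis (y) by range of marker score (x) for 6 members, with 1 point per library. The dotted line divides cycling from differentiated ranges; Hist1h1b, Hist1h2ae and Hist1h1e are highest past both cycle limits, Hist1h2bc in the enterocyte, enteroendocrine and tuft ranges and Hist3h2a in the enteroendocrine and tuft ranges.

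The first treatment comparison asked whether EIPA changed the members in WT organoids. In sums of all kept cells, the quasi-likelihood test of edgeR, with Benjamini-Hochberg adjustment over every gene tested, called 0 of 62 members and 0 of 15890 genes, or 0%. At an unadjusted p under 0.05 were 5 members, against 10.1% of genes. DESeq2 called 3 members, all lower (0.424% of genes lower): Hist2h4, Hist4h4 and Hist1h2ac. The median log2 difference was -0.04 over members and -0.003 over genes, and over members it was -0.43 in replicate 1 and 0.13 in replicate 2. It was 0.25 without +EIPA replicate 1, 0.045 without -EIPA replicate 2 and -0.46 without +EIPA replicate 2. A change summed over all cells can come from fewer cells of a type or from less RNA per cell, which cannot be told apart there, so each class was compared as well.

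The libraries are paired by experiment, and with the replicate number as a block 5 members passed, 4 lower (0.812% of genes lower) and 1 higher (4.47% higher). Hist1h2ac, an H2A gene, stood at 8.26 and 13.0 CPM in -EIPA and at 4.35 and 5.36 in +EIPA (log2 fold change -1.05, SE 0.269, edgeR adjusted p = 0.333, and 0.0210 with the block). Hist2h4, an H4 gene, stood at 1.84 and 2.31 against 0.871 and 1.11 CPM (-0.98, SE 0.244, edgeR adjusted p = 0.328, and 0.0358 with the block). For both, each +EIPA library lay below each -EIPA library. Without -EIPA replicate 2 the change of Hist1h2ac was -0.67. Hist4h4, also an H4 gene, stood at 3.23 and 3.61 against 1.88 and 1.98 CPM (-0.74, SE 0.153, edgeR adjusted p = 0.272, and 0.0372 with the block).

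Hist1h2ao, an H2A gene of few UMIs, stood at 0.260 and 0.648 CPM against 0.0908 and 0.219 (-1.44, SE 0.665, edgeR adjusted p = 0.582, and 0.0462 with the block). Its 4 sums were 42 and 155 UMIs against 15 and 51, and 92.8% of its windows are shared with another histone gene. Its change was -2.28 when +EIPA replicate 2 was left out, -0.62 when -EIPA replicate 2 was and -0.94 when +EIPA replicate 1 was. The member that was higher under the block, Hist1h2bc, stood at 100.2 and 111 CPM in -EIPA and 118 and 129.9 in +EIPA (0.31, SE 0.111, edgeR adjusted p = 0.470, and 0.0381 with the block). Its change was 0.20 when +EIPA replicate 2 was left out. Enterocytes, in which it is high, were 14.2% and 6.60% of scored cells in -EIPA and 20.6% and 18.5% in +EIPA, and the part of that in its level was not tested. Over all members, both +EIPA libraries lay below both -EIPA libraries for 11 (33.6% of genes) and above for 2 (13.5% of genes).

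Within cycling cells the same 4 members were the ones called lower under the block, with 1.75% of genes lower, and 0 were called higher, against 3.45%. Without the block edgeR called 0 of 62 members and 0 of 14454 genes, or 0%, with 3 members at an unadjusted p under 0.05, against 5.4% of genes, and DESeq2 called 0 members (1.26% of genes). Hist1h2ac stood at 10.1 and 15.6 CPM in the cycling cells of -EIPA and at 5.57 and 8.28 in +EIPA (log2 fold change -0.84, SE 0.308, edgeR adjusted p = 0.908, and 0.00133 with the block). Hist2h4 stood at 2.50 and 3.22 against 1.24 and 1.64 CPM (-0.94, SE 0.248, edgeR adjusted p = 0.650, and 0.00894 with the block). Neither pair of groups overlaps. Hist1h2ac changed by -0.46 without -EIPA replicate 2 and by -0.56 without +EIPA replicate 1. Hist4h4 stood at 3.86 and 4.02 against 2.50 and 2.69 CPM (-0.55, SE 0.140, edgeR adjusted p = 0.612, and 0.0300 with the block). For Hist1h2ao, on 32 and 120 UMIs against 8 and 37, the blocked change was -1.47 (edgeR adjusted p = 0.0383), and the unblocked change was -2.62 when +EIPA replicate 2 was left out, -0.58 when -EIPA replicate 2 was and -0.82 when +EIPA replicate 1 was.

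Most other members did not share this direction in cycling cells. Of 62 members, 45 had a positive log2 change in cycling cells, against 48.9% of genes, with a median of 0.11, and 17 had a negative one. That median was -0.29 without +EIPA replicate 2 and 0.39 without +EIPA replicate 1. The pairs went opposite ways: the median log2 difference over members was -0.27 in replicate 1 and 0.36 in replicate 2, where over genes it was -0.04 and -0.06. Cycling cells held a median of 14508 UMIs without and 13775.5 with EIPA in replicate 1, and 14891 and 17441 in replicate 2. The part of depth in these differences was not tested. Hist1h1b stood at 682 CPM without and 580.0 with EIPA in replicate 1, and at 442 and 598 in replicate 2 (0.12, SE 0.208, edgeR adjusted p = 1.00). Hist1h4d stood at 178 and 132 CPM without EIPA and at 175 and 228 with it (0.44, SE 0.205, edgeR adjusted p = 0.975). No overlap was seen for 6 members that were lower (25.1% of genes), the 4 called under the block and the neighbours Hist2h3c1 and Hist2h3c2, and for 2 that were higher (11.2%).

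In differentiated cells 51 members had enough UMIs to test, and edgeR called 0 of them and 0 of 13608 genes, or 0%, with 6 members against 8.95% of genes at an unadjusted p under 0.05. The block called 0 members (3.12% of genes) and DESeq2 0 (1.68% of genes). Most values were lower with EIPA: 41 of 51 log2 changes were negative, against 55.3% of genes, with a median of -0.37. That median was -0.063 without -EIPA replicate 2, -0.22 without +EIPA replicate 1, and -0.62 and -0.60 without the other two. Here the pairs went the same way, at -0.23 and -0.59, against -0.10 and -0.24 for the median gene. Both +EIPA libraries lay below both -EIPA libraries for 21 members (42.1% of genes). Summed, the members of cycling cells stood lower in the enterocyte range than in the Paneth, goblet, enteroendocrine or tuft ranges. Enterocytes were 62.2% and 39.4% of differentiated cells in -EIPA and 68.0% and 55.8% in +EIPA. Enteroendocrine cells were 7.97% and 15.7% in -EIPA and 8.18% and 7.30% in +EIPA. Tuft cells were 2.74% and 4.07% in -EIPA and 1.46% and 2.33% in +EIPA. In the enterocyte range alone, a setting chosen after seeing the data, the median over members was -0.25. The part of the cell types in these values was not tested.

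Hist1h1b stood at 29.9 and 34.6 CPM in the differentiated cells of -EIPA and at 27.2 and 14.6 in +EIPA (log2 fold change -0.48, SE 0.287, edgeR adjusted p = 0.624). Hist1h2ap stood at 10.6 and 13.9 against 8.82 and 6.76 CPM (-0.50, SE 0.187, edgeR adjusted p = 0.551). Both +EIPA values are below both -EIPA values for each gene, and neither passed the test. Hist1h2ac stood at 3.84 and 8.46 against 2.68 and 2.20 CPM (-1.18, SE 0.376, edgeR adjusted p = 0.513). Without -EIPA replicate 1 it passed (-1.59, edgeR adjusted p = 0.0193), as did Hist1h2ae, making 2 members lower against 0.744% of genes, and without -EIPA replicate 2 its change was -0.54. The 2 members that were higher in both +EIPA libraries (10.3% of genes) were Hist1h2bc, at 141 and 156 against 171 and 179 CPM (0.39, SE 0.114, edgeR adjusted p = 0.490), and Hist2h3c2 (1.38, SE 0.330, edgeR adjusted p = 0.442).

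Whether the change with EIPA differed between the classes was tested as an interaction with library as a block. It called 0 of 62 members and 40 of 15058 genes, or 0.266%, by edgeR, with 15 members against 15.5% of genes at an unadjusted p under 0.05. The change in cycling cells exceeded that in differentiated cells for 51 of 62 members, against 54.9% of genes, by a median of 0.49 on the log2 scale, which was 0.15 without -EIPA replicate 2 and 0.24 without +EIPA replicate 2. Hist1h2af had a difference of 1.21 (SE 0.266, edgeR adjusted p = 0.117) and Hist1h2ab of 1.10 (SE 0.227, edgeR adjusted p = 0.0947). Hist1h3c had 0.99 (SE 0.334, edgeR adjusted p = 0.222) and Hist1h1b 0.69 (SE 0.310, edgeR adjusted p = 0.331). The difference went the other way for Hist2h3c2, at -1.90 (SE 0.406, edgeR adjusted p = 0.107), and Hist1h2bc, at -0.32 (SE 0.107, edgeR adjusted p = 0.214). The count turned on single libraries: without -EIPA replicate 1 it was 27 members (17% of genes) and without -EIPA replicate 2 it was 3 (3.02% of genes).

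**Figure D3:**
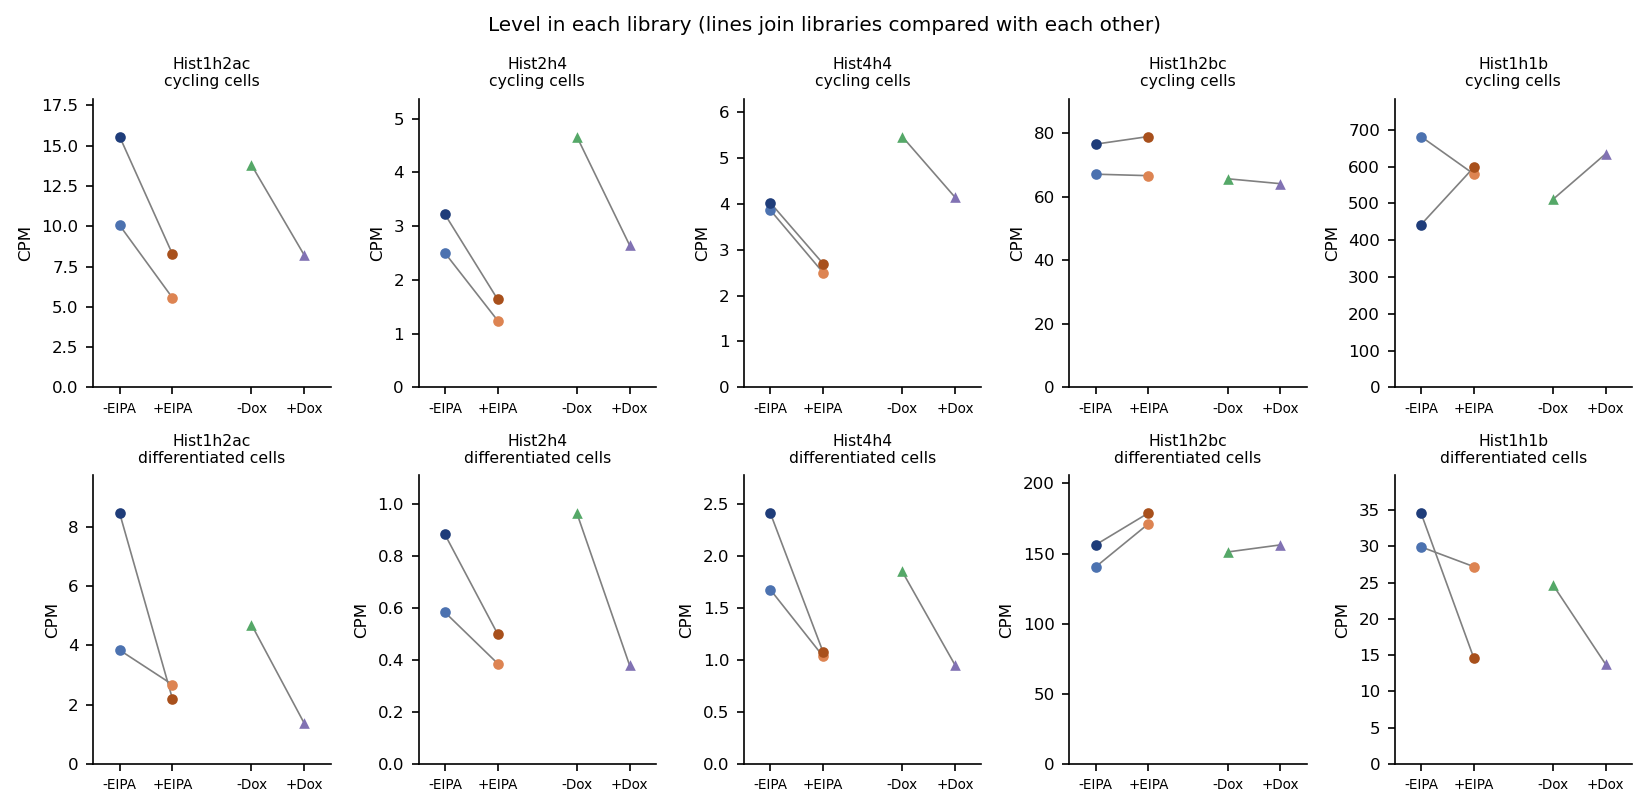
CPM (y axis, from 0) in each library for 5 members, in cycling cells (top) and differentiated cells (bottom). Circles are WT libraries, lighter for replicate 1 and darker for replicate 2, triangles are CRISPR libraries, and lines join the libraries of 1 experiment; Hist1h2ac, Hist2h4 and Hist4h4 are lower at the treated end of each line, Hist1h2bc is higher there in differentiated cells of the WT pairs, and the Hist1h1b lines cross in cycling cells.

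The second treatment comparison, +Dox against -Dox, has 1 library a side and so no test. The intervals below are exact 95% intervals of the ratio and cover counting error only, and members needed 200 or more UMIs in the 2 libraries. Over all cells kept, the median of 59 members was -0.39 on the log2 scale, against -0.05 for all 12421 genes. Cycling cells were 51.5% of scored cells in -Dox and 36.0% in +Dox, and the +Dox cells alone were sorted for GFP, and the part of either in this median was not tested. At least 1.5-fold lower were 13 members (2.99% of genes) and at least 1.5-fold higher 0 (9.36% of genes). The lowest ratios belonged to Hist1h4m, an H4 gene (184 UMIs in -Dox and 77 in +Dox, 2.43-fold lower in CPM, log2 ratio -1.28, interval -1.68 to -0.89), Hist1h2ac (11.1 and 4.69 CPM, 2.37-fold lower, -1.25, interval -1.35 to -1.14) and Hist2h4 (3.37 and 1.47 CPM, 2.30-fold lower, -1.20, interval -1.39 to -1.01). The highest ratios belonged to Hist3h2a (7.52 and 10.3 CPM, 0.46, interval 0.37 to 0.55), Hist1h2bc (101 and 114 CPM, 0.17, interval 0.14 to 0.19) and Hist2h2be, an H2B gene (313 and 355 UMIs, 0.16, interval -0.07 to 0.38).

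Within cycling cells the ratios lay nearer to 0. There the median of 56 members was -0.006, against -0.04 for all genes, with 3 members at least 1.5-fold lower (2.09% of genes) and 0 higher (4.71% of genes). The 3 were Hist1h4m (1.18 and 0.605 CPM, log2 ratio -0.96), Hist2h4 (4.67 and 2.65 CPM, -0.82) and Hist1h2ac (13.8 and 8.21 CPM, -0.75). Hist4h4 stood at 5.46 and 4.14 CPM (-0.40, interval -0.57 to -0.23). Hist1h1b went the other way, at 511 CPM in -Dox and 635 in +Dox (0.31, interval 0.30 to 0.33). Cycling cells were deeper in +Dox, with a median of 21569 UMIs against 14572, and the part of depth in these ratios was not tested.

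In differentiated cells 18 of 21 members had lower levels with Dox, against 56.2% of genes, and Hist3h2a (9.57 and 11.7 CPM), Hist1h2bc (151 and 156) and Hist1h1c higher ones. The median was -0.43, against -0.04 for all genes, with 8 at least 1.5-fold lower (4.08% of genes) and 0 higher (5.4% of genes). Hist1h2ac stood at 4.70 CPM in -Dox and 1.37 in +Dox (3.43-fold lower, log2 ratio -1.78, interval -2.13 to -1.43). Hist1h2ap stood at 10.5 and 4.53 CPM (-1.21, interval -1.42 to -1.01), Hist1h2ae at 12.8 and 6.31 (-1.02, interval -1.20 to -0.84) and Hist1h1b at 24.7 and 13.7 (-0.85, interval -0.97 to -0.72). Differentiated cells were deeper in +Dox, with a median of 15715 UMIs against 10575, and enterocytes were 71.7% of them against 75.9%, and the part of either in these ratios was not tested.

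**Figure D4:**
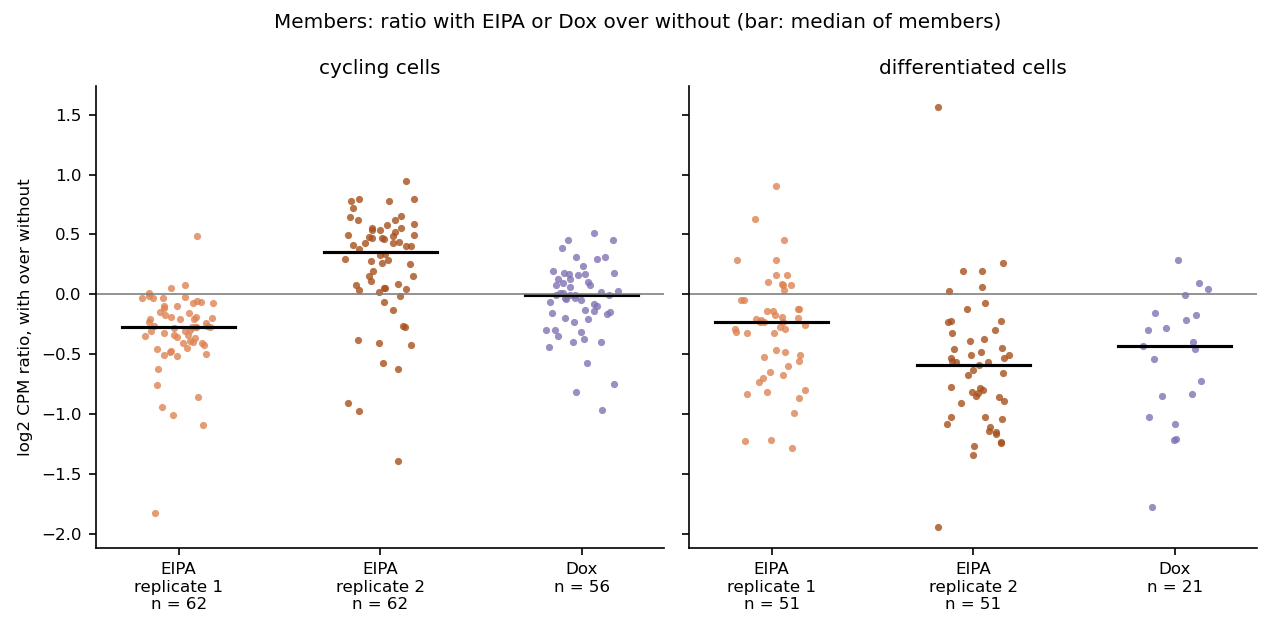
Log2 ratio of CPM with over without treatment (y axis) for each member with enough UMIs, for the EIPA pairs and for Dox (x axis), in cycling cells (left) and differentiated cells (right). Bars are medians: in cycling cells they stand at -0.27, 0.36 and -0.006, and in differentiated cells at -0.23, -0.59 and -0.43.

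EIPA and Dox share no library, so their values can be set side by side. Among members with 200 or more UMIs in the 2 CRISPR libraries, 6 of 56 were lower in cycling cells in both EIPA pairs and in +Dox, where 38.8% of genes were. They were Hist2h4, Hist4h4, Hist1h2ac, Hist1h2ag, Hist1h3d and Hist1h4n. In differentiated cells 13 of 21 members were lower in all 3, against 43% of genes, and over all cells kept 20 of 59, against 45.8%. Hist1h2ac, Hist2h4 and Hist4h4 are set out above for each. Hist1h2ac is an H2A gene and the other two are H4 genes, and they lie on chromosomes 13, 3 and 6.

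The experiments differed in level for many members, apart from EIPA. Over all cells kept, both replicate 1 libraries lay below both replicate 2 libraries for 28 of 62 members, against 16.6% of genes, and above for 7, against 26%. At least 1.5 times below were 13 members (2.06% of genes) and at least 1.5 times above 0 (3.4% of genes). Of the 13, 9 share more than 50% of their windows with another histone gene, as do 14 of the 49 other members, and the share in the 13 ran from 12.9% to 93.1%. Hist1h2bk, an H2B gene, stood at 0.730 CPM in -EIPA replicate 1 and 0.321 in +EIPA replicate 1, against 4.09 and 3.32 in replicate 2, 3.54 in -Dox and 3.01 in +Dox. Hist1h2an stood at 2.38 and 2.00 in replicate 1, against 14.3 and 17.4, 19.9 and 21.0. Hist1h2ag stood at 1.23 and 0.865, against 8.79 and 5.77, 5.52 and 4.31. For each, both CRISPR libraries stood nearer to replicate 2 than to replicate 1. The share of windows held in common with another histone gene was 71.5% in Hist1h2bk, 83.8% in Hist1h2an and 76.7% in Hist1h2ag, and its part was not tested. Hist1h2bg followed at 3.13-fold and 5.79-fold, with 45.8% of windows shared. These 4 were chosen after their values were seen.

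**Figure D5:**
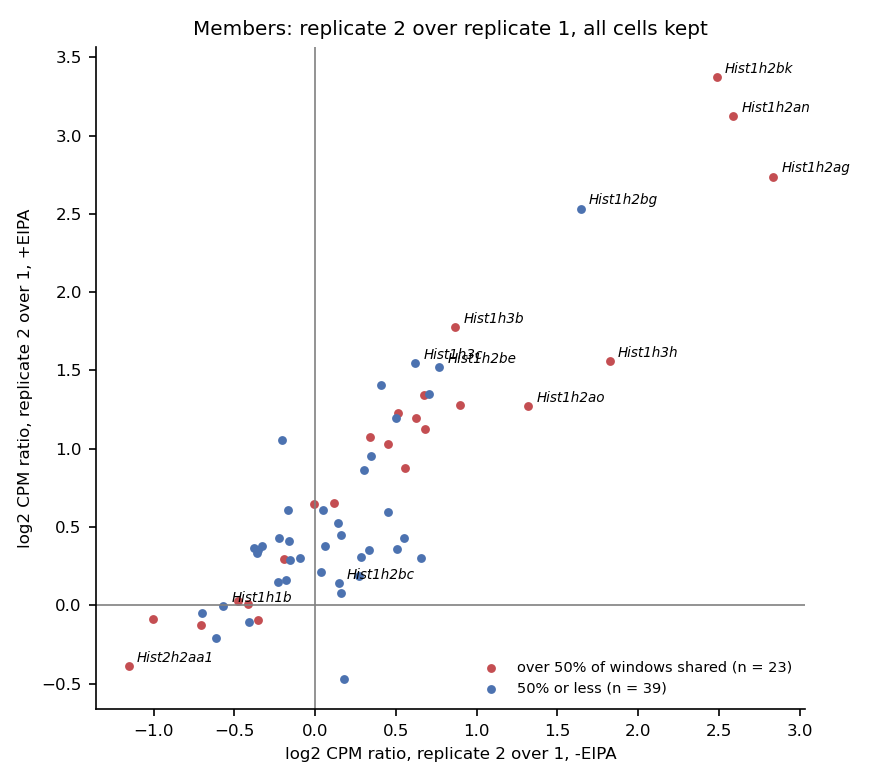
Log2 CPM ratio of replicate 2 over replicate 1 in -EIPA (x axis) and +EIPA (y axis) for each member over all cells kept, coloured by whether more than 50% of its 91-base windows are found in another histone gene. Hist1h2bk, Hist1h2an, Hist1h2ag and Hist1h2bg lie farthest to the upper right.

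Genes outside the clusters that act on histone mRNA or on histones were listed as well. Of 25 genes for histone mRNA processing and histone chaperones, edgeR called 0 with EIPA over all cells or in either class, with or without the block. Of all genes, the block called 0.812% lower and 4.47% higher over all cells, 1.75% and 3.45% in cycling cells and 3.12% in either direction in differentiated cells. At least 2-fold higher in cycling cells in every library were 15 of them (8.29% of all genes). Slbp, which binds the stem-loop, stood at 73.3 and 81.6 CPM in -EIPA, 64.7 and 67.6 in +EIPA, 123 in -Dox and 102 in +Dox, and was 2.81-fold higher in cycling cells. Nasp, a carrier of histones, stood at 195 and 194, 165 and 151, 183 and 132 CPM, Atrx, a remodeller that helps deposit H3.3, at 167 and 175, 141 and 132, 176 and 147, and Anp32e, which removes H2A.Z, at 148 and 165, 125 and 126, 169 and 112. With Dox 2 genes of the list were at least 1.5-fold lower over all cells, Anp32e (log2 ratio -0.59) and Chaf1a (-0.59), the latter a subunit of the chromatin assembly factor, against 2.99% of all genes, and 0 in cycling cells, against 2.09%. In differentiated cells Asf1b (-0.63) and Chaf1b (-0.61) were, against 4.08%.

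Of 11 genes for histone variants outside the clusters, 10 were tested with EIPA, and edgeR called 0 over all cells or in either class. With the block H2afv, an H2A.Z gene, was called lower in cycling cells (log2 fold change -0.20, edgeR adjusted p = 0.0379, and 1.00 without the block), as were 1.75% of genes, and not over all cells or in differentiated cells. At least 2-fold higher in cycling cells in every library were 3 (8.29% of all genes), Cenpa, H2afx and H2afz. Of 3 that were lower in every library (34.1% of all genes), H1fx and H2afy2 had sums at the floor, and H2afj, an H2A variant gene, had log2 ratios of -0.38 to -0.16. H2afz, the other H2A.Z gene, was 3.51-fold higher in cycling cells, H3f3b 1.49-fold and H3f3a, which also encodes H3.3, 1.33-fold. With Dox 0 of 9 were at least 1.5-fold lower (2.99% of all genes) or higher (9.36%) over all cells or in cycling cells (2.09% and 4.71%), and 1, Cenpa, the centromeric H3, was lower in differentiated cells (log2 ratio -0.65, against 4.08% of all genes lower).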

How the data were processed

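Single-cell RNA-seq libraries of 10x Genomics 3′ v3.1 chemistry were used: 2 each of WT -EIPA and +EIPA and 1 each of CRISPR -Dox and +Dox organoids, all of day 3. The authors deposited raw UMI counts per gene and cell barcode, made with Cell Ranger 6.1.2 on mm10 (GRCm38) per the submitters' processing notes, without normalization.

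Barcodes needed 1000 genes and less than 20% of UMIs from mitochondrial genes to be kept as cells. Free RNA was not removed and doublets were kept in the reported values. Markers hold no histone gene, and their limits (6 UMIs of S-phase, 9 of G2/M, 30 of enterocyte, 60 of Paneth, 30 of goblet, 12 of enteroendocrine and 6 of tuft markers in 3000) were set after the score distributions had been seen. Cells under 3000 UMIs were left out of the classes. Unthinned counts were summed per library and class. CPM is a gene's sum over the sum of all genes, times 1000000.

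EIPA was tested on summed counts with edgeR 4.0.16 in R 4.3.3 (its quasi-likelihood F test after TMM scaling and filterByExpr, with p values adjusted by Benjamini-Hochberg across the genes tested, and a threshold of 0.05). DESeq2 1.42.0 was an alternative. Same-numbered libraries come from the same experiment in the study's source data, and their deviations from the group means correlated at 0.690 over all cells, 0.679 in cycling and 0.551 in differentiated cells. A fit with the replicate number as a block leaves 1 residual degree of freedom per gene. Its small adjusted p values rest on a spread shared across genes. The fold changes and SE printed beside them are from the fit without the block, unless called blocked. For Hist1h2ac in cycling cells the SE was 0.308 without the block and 0.0637 with it. With 2 libraries a group, p values measure only the spread between these libraries. The fits were also run on simulated counts that held no difference between replicates, so these cannot decide between the fits with and without the block. Python 3.11.15, numpy 2.4.6, scipy 1.17.1, pandas 2.3.3, scanpy 1.11.5 and matplotlib 3.10.9 were used.

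Gene models came from a GENCODE annotation of GRCm38 and promoters from RefSeq (GRCm38.p6). The members and lists were chosen with earlier results of these data known. Genes were named by rule: the 10 members of most UMIs, the 5 highest and 5 lowest ratios of cycling over differentiated cells, members past the threshold in any EIPA test, the 3 largest rises and falls with Dox, and from the other lists each gene past an EIPA or Dox threshold and the 3 of most UMIs. Other genes of those lists that are named, such as Slbp and H2afj, were chosen after their values were seen. The gene targeted in the CRISPR organoids is not reported here. Alternatives changed the test, scaling, filters, limits on cells, doublets, marker limits and libraries.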

Additional observations from a re-analysis of the deposited data

How the results depend on the processing

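The log2 ratios of cycling over differentiated cells and of +Dox over -Dox kept the direction of their medians over members under each alternative tried (other limits on cells, doublet scores and, for the first, other marker limits), and Hist1h2ac with Dox moved to -1.14 when cells needed 2000 genes and less than 10% mitochondrial UMIs. In cycling cells the Dox median was -0.006, with 25 members higher and 31 lower, so the direction of that median means little. The EIPA counts depended on the test. With the replicate block, which uses the pairing, 5 members and 839 genes were called over all cells, 4 and 752 in cycling cells, and 425 genes in differentiated cells. The block changed no other call among the members. DESeq2 called 3 members and 579 genes over all cells, 195 genes in cycling and 224 in differentiated cells. Without the filter on low counts edgeR called 198, 81 and 274 genes, and 3 members and 244 genes in the interaction. With marker limits 1.5 times as high, 2 genes were called in cycling cells and 0 in the interaction, and with limits divided by 1.5 the interaction called 20. Library size scaling gave 61 genes in the interaction. In the enterocyte range alone, chosen after seeing the data, 3 genes were called. The cause of these differences was not tested.

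Leaving out each WT library in turn, all-cell calls were 0 to 137 genes, differentiated calls 0 to 2 members and 0 to 607 genes, and interaction calls 0 to 27 members and 1 to 2618 genes. The median over members ran from -0.46 (without +EIPA replicate 2) to 0.25 over all cells and from -0.62 to -0.063 (without -EIPA replicate 2) in differentiated cells, -0.29 to 0.39 in cycling cells and 0.15 to 0.70 in the interaction. The log2 change of Hist1h2bc in cycling cells, 0.068, ran from -0.092 (without +EIPA replicate 2) to 0.21, and was -0.038 without -EIPA replicate 1. The lone library of a group was then assumed to vary like the other group.

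Scrublet's automatic limit marked 0 to 12.5% of cells and did not work in 3 libraries, so in that alternative cells with the highest scores, 9.27 to 9.89% per library, were removed in its place, and no call among the members changed. The S and G2/M ranges taken alone, also chosen after seeing the data, changed no call among the members. Members of few UMIs, such as Hist1h2ao, Hist2h3c2 and Hist3h2ba, are limited by depth.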

Other observations

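Hist3h2ba and H1fx held fewer UMIs in the CRISPR than in the WT organoids, which are different lines and were not compared by a test. Hist3h2ba, an H2B gene, held 52 and 87 UMIs in -EIPA, 62 and 63 in +EIPA, 2 in -Dox and 7 in +Dox. H1fx, a linker histone gene outside the clusters, held 109 and 167, 113 and 108, and 1 in each CRISPR library. H1fx was chosen after its values were seen. The tuft range held 9 and 5, 5 and 4 of the Hist3h2ba UMIs and 0 in both CRISPR libraries. The enteroendocrine range held 6 and 6, 9 and 5 of them, and also 0 in both CRISPR libraries. The summed enteroendocrine markers stood at 1014 to 1734 CPM in the WT libraries, 44.2 in -Dox and 144 in +Dox, and the summed tuft markers at 34.0 to 43.6, 9.43 and 6.41 CPM. The 7 immune and stromal markers, of cells outside the epithelium, summed to 6.94 to 13.6 CPM in the WT libraries and 0.443 and 0.684 CPM in -Dox and +Dox. Their part in the levels of Hist3h2ba and H1fx was not tested.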
